A study of Mus musculus with 22 samples.

Results

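The genes described here encode the subunits of the respiratory chain and ATP synthase in the livers of newborn mice given AAV9 vectors. They were taken by symbol, as genes whose names start with Ndufa, Ndufb, Ndufc, Ndufs, Ndufv, Uqcr, Cox4i, Cox5, Cox6, Cox7, Cox8, Atp5, mt-Nd, mt-Co, mt-Cytb or mt-Atp, together with Sdha, Sdhb, Sdhc and Sdhd. Assembly factors named Ndufaf and pseudogenes marked -ps were dropped. Of 55291 genes in the table, 102 matched and 96 had a mean expected count of at least 10 over the 22 libraries, so the members were selected on symbol and on this mean count, the only measured value used. The 96 members comprised 83 genes of the nucleus and 13 genes of the mitochondrial genome. The nuclear members were 37 subunits of complex I, 4 of complex II, 8 of complex III, 17 of complex IV and 17 of complex V, and the mt- members were 7, 0, 1, 3 and 2 for the same complexes. Just inside the count minimum were Cox8b at a mean of 12.5, Cox7a1 at 15.8 and Cox6a2 at 20.0, and just outside it was Cox4i2 at 8.36.

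The respiratory chain is built from 2 genomes. Most subunits are made from nuclear genes and imported, whereas mitochondrial DNA encodes the core proton-pumping subunits and is transcribed as long polycistronic RNAs that are cut at the tRNAs. Complex I oxidises NADH, complex II (succinate dehydrogenase, wholly nuclear) oxidises succinate and is also an enzyme of the TCA cycle, complex III passes electrons to cytochrome c, complex IV reduces oxygen, and complex V makes ATP from the proton gradient. Hepatocytes are rich in mitochondria, and around birth the liver turns to the oxidation of fat from milk.

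All 22 livers came from male wild-type C57BL/6 pups injected intravenously on postnatal day 1 and collected 36 hours later. PBS (n = 4) carried no vector and AAV9.empty (n = 4) carried the capsid without a genome. rAAV9.CB.EGFP (n = 4), rAAV9.CB.ST3GAL5 (n = 3) and rAAV9.CB.ST3GAL5.E332K (n = 3) expressed their insert from the ubiquitous CB promoter. ST3GAL5 encodes GM3 synthase, the enzyme that opens the synthesis of most gangliosides, and E332K is the altered form named in the labels. rAAV9.Syn1.ST3GAL5.miR122BS (n = 4) paired the neuronal Syn1 promoter with binding sites for miR-122, a microRNA abundant in hepatocytes, to limit expression in liver. The study calls the CB.ST3GAL5 and Syn1 vectors v1 and v2. The vector dose is not in the labels, vector transcripts were not analysed here, and litters are not named, so a p-value here reflects only how far the libraries of a group lay apart, which may be partly technical.

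Libraries held 17164502 to 24305788 expected counts. The mt- members took 2.77 to 4.26% of them and the nuclear members 0.893 to 1.34%. Summed TPM of 7 hepatocyte markers was 61738 to 70856 in AAV9.empty, 42750 to 51594 in rAAV9.CB.ST3GAL5, 47574 to 52948 in rAAV9.CB.ST3GAL5.E332K and 51577 to 63296 in rAAV9.Syn1.ST3GAL5.miR122BS, with none of the 7 at 0 in any group. The libraries PBS replicate 2, AAV9.empty replicate 3, rAAV9.CB.EGFP replicate 3 and rAAV9.Syn1.ST3GAL5.miR122BS replicate 3 held striated muscle and brown fat markers at 69.8, 102, 681 and 459 summed TPM, and counts are also given without these libraries. Summed erythroid TPM was 74226 in rAAV9.CB.ST3GAL5.E332K replicate 3 and 71649 in rAAV9.Syn1.ST3GAL5.miR122BS replicate 2, below all other libraries. One gene annotated to the Y chromosome, Gm47283, had no count in 9 of the 22 libraries, among them all 3 of rAAV9.CB.ST3GAL5 and none of rAAV9.CB.ST3GAL5.E332K. In these bulk samples, fewer cells of a type and less RNA per cell cannot be told apart.

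Levels are compared between genes in TPM, which is scaled per length. The mt- members stood above nearly all nuclear ones. Apart from mt-Atp8, their deposited TPM ran from 1509 for mt-Nd5 to 9836 for mt-Nd3, both subunits of complex I. These TPM leave out reads listed under nuclear copies, described below. The copy of mt-Co2 held a mean of 74431 counts against 13933, and that of mt-Nd4l 2590 against 1021. The copy of mt-Co3 held 37210 against 42221, so the places of these genes in the order are not known. mt-Co1, the catalytic subunit of complex IV, stood at 9070 TPM and mt-Cytb, the only mt- subunit of complex III, at 4401 TPM. mt-Atp8 rested on a mean of 347 counts over a very short gene that overlaps mt-Atp6. It was listed at 0 TPM in 6 libraries (PBS replicates 1, 2 and 3, AAV9.empty replicate 1, rAAV9.CB.ST3GAL5.E332K replicate 1 and rAAV9.Syn1.ST3GAL5.miR122BS replicate 2) that held 126 to 263 counts of it, and at 8515 to 15310 TPM in the other 16, so its mean of 8997 TPM mixes both and places it nowhere among the 13.

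Among nuclear members the highest level was that of Atp5b, the catalytic beta subunit of ATP synthase, at 1897 TPM. The leaders of the other complexes were Uqcrq at 1363 TPM (complex III), Cox6a1 at 1193 TPM (complex IV), Ndufa3 at 407 TPM (complex I) and Sdhd at 170 TPM (complex II). Median levels were 173 TPM for the nuclear subunits of complex I, 102 for complex II, 445 for complex III, 308 for complex IV and 419 for complex V.

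Where one subunit of complex IV has several gene copies, the form known from liver was the higher one. Cox4i1 averaged 1018 TPM against 0.990 TPM for Cox4i2, the form known from lung, and Cox6a1 averaged 1193 TPM against 2.74 TPM for Cox6a2, the heart and muscle form. Cox7a2 and Cox7a2l averaged 308 and 136 TPM against 7.85 TPM for the muscle form Cox7a1. Cox8a averaged 830 TPM against 8.21 TPM for the muscle form Cox8b. Cox6b1 averaged 561 TPM and Cox6b2, the form known from testis, 66.4 TPM. Ndufa4 averaged 429 TPM and its paralog Ndufa4l2 3.83 TPM. The 3 genes that encode the identical c subunit of the ATP synthase ring, Atp5g1, Atp5g2 and Atp5g3, averaged 419, 409 and 780 TPM. Ndufb4c is annotated as a processed pseudogene on chromosome 15, and all of its 31-base stretches occur in Ndufb4, so reads could be split between those 2 members.

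Summed over the 83 nuclear members, CPM (counts scaled to TMM library sizes) were 10571 ± 1006 (SD, n = 4) in PBS, 10883 ± 261 (n = 4) in AAV9.empty and 11317 ± 256 (n = 4) in rAAV9.CB.EGFP. The same sum was 9413 ± 541 (n = 3) in rAAV9.CB.ST3GAL5, 11826 ± 1277 (n = 3) in rAAV9.CB.ST3GAL5.E332K and 12461 ± 1222 (n = 4) in rAAV9.Syn1.ST3GAL5.miR122BS. The rAAV9.CB.ST3GAL5 livers, at 8789 to 9756 CPM, lay below every other library.

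Summed over the 13 mt- members, CPM were 28878 ± 1119 in PBS, 30566 ± 605 in AAV9.empty and 34344 ± 2073 in rAAV9.CB.EGFP. They were 27554 ± 2533 in rAAV9.CB.ST3GAL5, 32489 ± 3649 in rAAV9.CB.ST3GAL5.E332K and 37516 ± 4940 in rAAV9.Syn1.ST3GAL5.miR122BS. Every rAAV9.CB.EGFP and rAAV9.Syn1.ST3GAL5.miR122BS liver lay above every AAV9.empty liver in this sum, while the rAAV9.CB.ST3GAL5 range of 25542 to 30399 CPM met that of AAV9.empty.

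**Figure D1:**
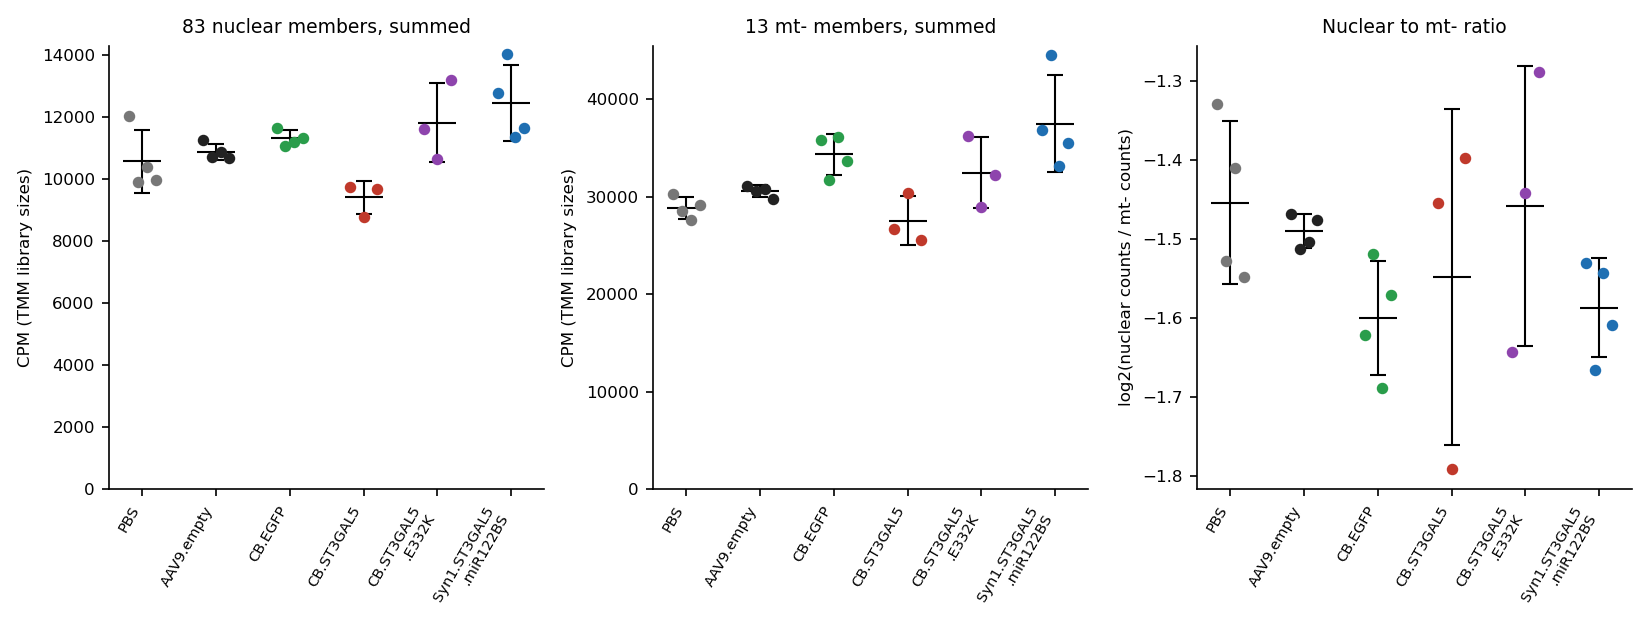
Summed CPM of the nuclear members, summed CPM of the mt- members, and the log2 ratio of their summed counts, one point per liver with group mean and SD bars (the prefix rAAV9. is left off the axis names). The 3 rAAV9.CB.ST3GAL5 livers are the lowest in the nuclear sum, and the ratio panel, whose axis does not start at 0, spans −1.79 to −1.29.

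The log2 ratio of summed nuclear to summed mt- counts, which does not depend on library scaling, was −1.47, −1.51, −1.50 and −1.48 in the AAV9.empty livers. It was −1.33, −1.53, −1.41 and −1.55 in PBS and −1.62, −1.52, −1.69 and −1.57 in rAAV9.CB.EGFP. It was −1.45, −1.79 and −1.40 in rAAV9.CB.ST3GAL5 and −1.64, −1.44 and −1.29 in rAAV9.CB.ST3GAL5.E332K. The 4 rAAV9.Syn1.ST3GAL5.miR122BS livers had −1.53, −1.66, −1.54 and −1.61. The rAAV9.CB.EGFP and rAAV9.Syn1.ST3GAL5.miR122BS livers all lay below the 4 AAV9.empty livers, by 0.11 and 0.10 in the means, and the 2 other ST3GAL5 groups spread across them. The difference from AAV9.empty was −0.06 for rAAV9.CB.ST3GAL5 and 0.03 for rAAV9.CB.ST3GAL5.E332K, smaller than the SDs of those groups (0.21 and 0.18). Without rAAV9.CB.ST3GAL5 replicate 2, the first of these became 0.06. Group means ranged from −1.60 in rAAV9.CB.EGFP to −1.45 in PBS. No test was made of a sum over members.

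In the comparison of rAAV9.CB.ST3GAL5 with AAV9.empty, which sets the vector with its genome and insert beside the capsid alone, part of the nuclear members were lower and none higher. Of 80 nuclear members tested, 23 were lower and 0 higher by edgeR's quasi-likelihood test at an adjusted p of at most 0.05 over all genes. Across all genes 14.3% were lower and 13.8% higher, against 28.75% and 0% of the nuclear members. The absence of higher members held at an unadjusted p under 0.05 (0 members), in DESeq2 (0) and in limma on TPM (0). With limma on TPM 7 nuclear members were lower, beside 1138 of 13077 genes over the whole table, shares near each other. The median log2 fold change was −0.17 over the nuclear members and 0.02 over all genes. No member passed a 2-fold change. The lower members were 12 of 37 in complex I, 4 of 4 in complex II, 3 of 8 in complex III, 0 of 14 tested in complex IV and 4 of 17 in complex V. All 23 had groups that did not overlap, which calling them on the same livers favours, so it is no further support. The same holds for the other called genes below.

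Complex II was the complex in which every subunit was lower. Sdha, the flavoprotein that holds the succinate-binding site, was at 268, 251, 241 and 242 CPM in AAV9.empty and at 181, 179 and 205 CPM in rAAV9.CB.ST3GAL5. Sdhb, the iron-sulfur subunit, was at 94.3, 94.9, 88.7 and 84.9 CPM against 67.9, 65.5 and 77.4 CPM. These are the catalytic pair that faces the matrix, and in both genes the highest treated liver lay below the lowest control. Sdhc, a membrane anchor, was at 123, 117, 115 and 115 CPM against 96.1, 96.1 and 96.9 CPM. Sdhd, the other anchor, was at 173, 162, 162 and 162 CPM against 116, 97.3 and 133 CPM. The groups did not overlap for the anchors either.

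The log2 fold changes were −0.51 ± 0.11 for Sdhd (SE, adjusted p = 0.00764), −0.41 ± 0.08 for Sdha (adjusted p = 0.00651), −0.36 ± 0.09 for Sdhb (adjusted p = 0.0137) and −0.28 ± 0.07 for Sdhc (adjusted p = 0.0149). In percent these were falls of 29.7 for Sdhd, 24.6 for Sdha, 22.3 for Sdhb and 17.7 for Sdhc. Summed over the 4 genes, complex II stood at 623 ± 25.3 CPM in AAV9.empty (604 to 659), 617 ± 45.4 in PBS and 470 ± 38.5 in rAAV9.CB.ST3GAL5 (438 to 513). Without rAAV9.CB.ST3GAL5 replicate 1, the adjusted p was 0.0604 for Sdhb and 0.0549 for Sdhc. On TPM with limma, the adjusted p was 0.0504 for Sdha, 0.0613 for Sdhb and 0.119 for Sdhc, on a scale where the median of all genes moved to 0.10.

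**Figure D2:**
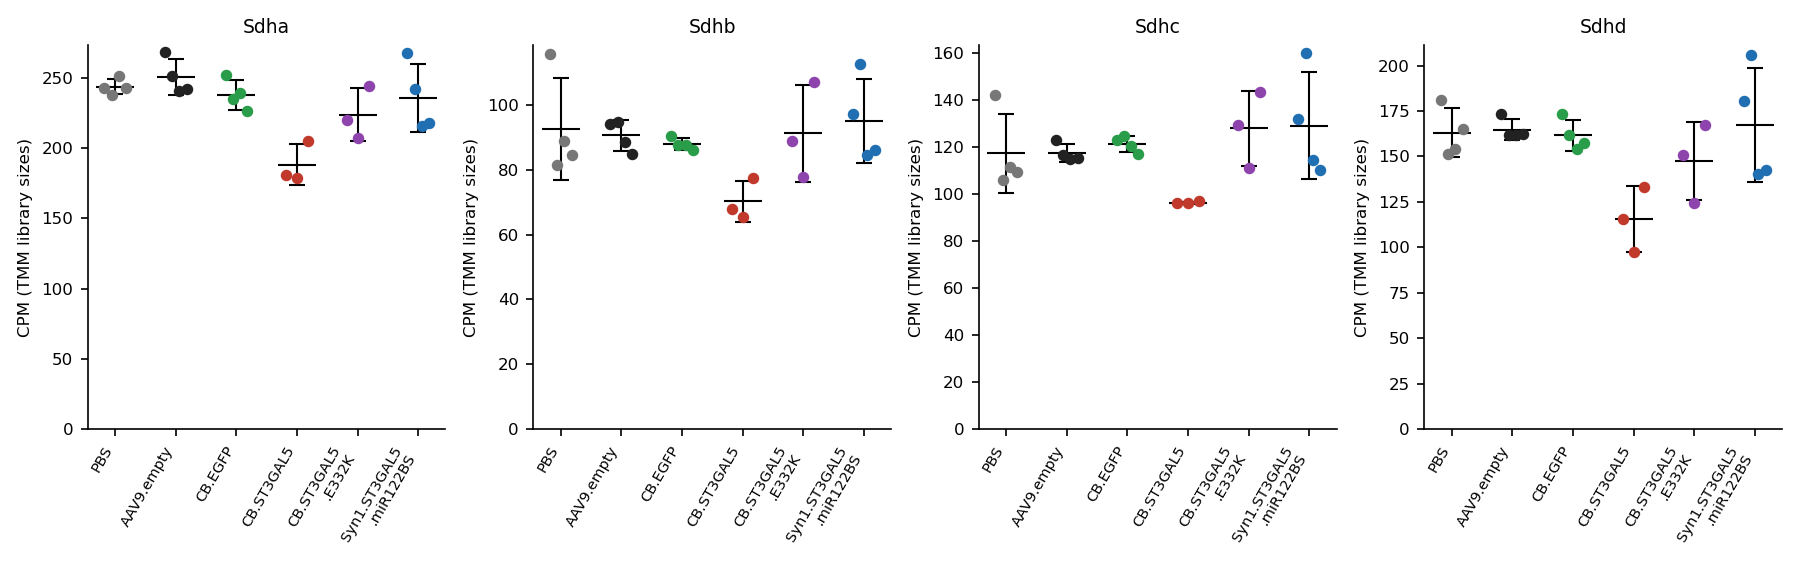
CPM of the 4 subunits of complex II in each liver, with group mean and SD bars and the axis starting at 0. The rAAV9.CB.ST3GAL5 livers are below all AAV9.empty livers in each panel, and the other vector groups overlap AAV9.empty.

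In the other groups the 4 genes kept to the control range or scattered around it. Sdhd was at 151, 124 and 167 CPM in rAAV9.CB.ST3GAL5.E332K and at 180.5, 206, 140.5 and 143 CPM in rAAV9.Syn1.ST3GAL5.miR122BS. Sdha was at 220.2, 207 and 244 CPM and at 267, 242, 216 and 218 CPM in the same 2 groups. None of the 4 passed in either comparison with AAV9.empty (adjusted p from 0.256 for Sdha to 0.972 for Sdhb in rAAV9.CB.ST3GAL5.E332K). Set directly against each other, rAAV9.CB.ST3GAL5 and rAAV9.CB.ST3GAL5.E332K differed by −0.23 for Sdha, −0.36 for Sdhb, −0.40 for Sdhc and −0.34 for Sdhd on the log2 scale, with adjusted p of 0.202, 0.11, 0.0584 and 0.168, so a difference between these 2 vectors in complex II was not established.

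Among the other lower members, Ndufb10, an accessory subunit in the membrane arm of complex I, was at 107, 109, 117 and 108 CPM in AAV9.empty and at 84.3, 74.6 and 81.0 CPM in rAAV9.CB.ST3GAL5. Ndufs7, which carries the last iron-sulfur cluster before ubiquinone, was at 58.8, 55.9, 54.4 and 56.2 CPM against 41.6, 40.1 and 44.4 CPM. Both sets of livers were well apart, and the log2 fold changes were −0.46 ± 0.08 for Ndufb10 (adjusted p = 0.0027) and −0.42 ± 0.07 for Ndufs7 (adjusted p = 0.0032). Ndufv3, a small subunit of the NADH-oxidising module, was at 64.5, 62.4, 66.8 and 57.1 CPM against 46.5, 42.5 and 51.1 CPM, a log2 fold change of −0.42 ± 0.09 (adjusted p = 0.0089). Atp5g1, one of the c-ring genes, was at 160.1, 147, 155 and 144 CPM against 120.1, 115 and 112 CPM, a log2 fold change of −0.39 ± 0.08 (adjusted p = 0.0053). In each the treated livers lay below the controls without overlap. Its sister genes Atp5g2 and Atp5g3 had −0.30 (adjusted p = 0.0136) and −0.24 (adjusted p = 0.0538), so 2 of the 3 c-ring genes passed. Atp5b, the most abundant nuclear member, had −0.28 (adjusted p = 0.0432), and the smallest fall that passed was −0.23 for Uqcrq. Both of these calls were lost in 12 of 19 alternatives, over which the values ran from −0.35 to −0.05 for Atp5b and from −0.29 to −0.11 for Uqcrq. Sdhd, Sdha and these 4 genes were the 6 largest falls. The calls of Atp5g1, Ndufs7 and Ndufb10 remained in all 19 alternatives tried, and those of Sdhd, Sdha and Ndufv3 were lost in 1, 3 and 3.

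The 23 depended on single livers. Without AAV9.empty replicate 1 they numbered 13, and without rAAV9.CB.ST3GAL5 replicate 2 they numbered 14, with 1 higher member. Without the libraries that held muscle markers they numbered 17. Genes lower over the whole table, 2134 of 14876 in the main fit, numbered 1584 of 14756, 1911 of 15236 and 1593 of 14707 in these fits. Other markers moved with this comparison and their part in it was not tested. Of 7 hepatocyte markers 6 were lower and 1 higher. All 10 neutrophil markers were higher, with summed TPM of 7375 to 8563 against 4468 to 4796 in AAV9.empty, as were 5 of 12 erythroid markers (118084 to 142376 against 111442 to 140934) and 2 of 4 T and NK markers tested of 6 (50.1 to 60.2 against 22.0 to 26.8). Kupffer cell and monocyte, endothelial and stellate markers went both ways (2 higher and 4 lower of 9, 2 and 2 of 7, and 1 and 1 of 6).

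Of the 13 mt- members, 2 were lower in rAAV9.CB.ST3GAL5, a share of 15.4% beside the background of 14.3%, with a median of −0.16. mt-Co2, the subunit that receives electrons from cytochrome c, was at 724, 798, 657 and 818 CPM in AAV9.empty and at 549, 666 and 471 CPM in rAAV9.CB.ST3GAL5 (log2 fold change −0.41 ± 0.13, adjusted p = 0.0372). It was the only called member whose groups overlapped. mt-Co3 was at 2009, 1998, 2223 and 2060.1 CPM against 1583, 1853 and 1411 CPM (−0.36 ± 0.10, adjusted p = 0.0276). The count was 6 without rAAV9.CB.ST3GAL5 replicate 2, 0 without rAAV9.CB.ST3GAL5 replicate 1 or 3 or AAV9.empty replicate 1 or 2, and 1 without AAV9.empty replicate 3 or 4.

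Both calls rested on genes that have near-complete copies in the nuclear genome. On chromosome 1 the annotation holds unprocessed pseudogenes whose 31-base stretches are those of mt-Co2 (Gm28661), mt-Co3 (Gm28437), mt-Atp6 (Gm10925), mt-Nd4l (Gm10222), mt-Nd4 (Gm28439), mt-Nd3 (Gm28438) and mt-Co1 (Gm29216). The deposited table gave Gm28661 a mean of 74431 counts against 13933 for mt-Co2, so 80 to 87.3% of the pair's reads stood under the copy. For mt-Co3 the copy Gm28437 took 42.0 to 55.2% of the pair's reads, and for mt-Atp6 the copy Gm10925 took 11.1 to 35.7%. Which of the 2 genomes such a read came from cannot be told apart.

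With the 7 copies added to their mt- genes, a choice made after seeing the data, mt-Co2 was at 4439.6, 4257, 4294 and 4329 CPM in AAV9.empty and at 4155, 4405 and 3695 CPM in rAAV9.CB.ST3GAL5. The groups then overlapped for mt-Co2, and its log2 fold change was −0.08 (adjusted p = 0.507). mt-Co3 likewise had −0.15 (adjusted p = 0.213), and 0 of 13 mt- members were lower. In the table as deposited, the fitted values of 12 of 13 mt- members were below 0. Whether the nuclear and mt- members differed from each other in this comparison was not tested.

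In rAAV9.CB.ST3GAL5.E332K against AAV9.empty, more nuclear members were higher than lower. Of 81 tested, 18 (22.2%) were higher and 1 lower, beside backgrounds of 7.93% higher and 7.09% lower, and the median log2 fold change was 0.17 against 0.00 over all genes. The higher members were 12 in complex I, 1 in complex III, 5 in complex IV and 0 in complexes II and V. None of the 13 mt- members passed in either direction, with 0 higher and 1 lower at an unadjusted p under 0.05 and 0 in DESeq2 and limma, and their median was 0.01. AAV9.empty is the shared control of this and the other vector comparisons, so their values are not independent.

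The leading genes were small accessory subunits. Cox6b2 was at 10.9, 9.62, 8.19 and 9.81 CPM in AAV9.empty and at 16.7, 17.7 and 20.6 CPM in rAAV9.CB.ST3GAL5.E332K (log2 fold change 0.93 ± 0.13, adjusted p = 0.000526). Ndufa1, an X-linked subunit needed for the assembly of complex I, was at 34.5, 35.8, 34.0 and 35.6 CPM against 56.5, 60.3 and 61.8 CPM (0.77 ± 0.08, adjusted p = 6.6e-05). Ndufb6, in the membrane arm, was at 42.8, 43.1, 44.8 and 39.2 CPM against 62.8, 62.8 and 73.7 CPM (0.64 ± 0.09, adjusted p = 0.000759). The treated livers stood clear of the controls in all 3 genes, and these calls remained in every alternative tried.

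Ndufb11, another X-linked membrane-arm subunit, was at 98.7, 98.5, 101 and 93.6 CPM against 123, 118 and 158 CPM (0.44 ± 0.11, adjusted p = 0.0165). Ndufa13 was at 84.9, 82.1, 82.2 and 75.9 CPM against 111, 99.0 and 117 CPM (0.42 ± 0.09, adjusted p = 0.00954). Cox7a2l, a paralog of Cox7a2, was at 95.7, 83.1, 98.4 and 89.1 CPM against 118, 114 and 135 CPM (0.42 ± 0.10, adjusted p = 0.0136). The groups did not overlap in any of the 3, and replicate 3 was the highest treated liver in each. On TPM with limma, Ndufb11 and Cox7a2l did not pass. The one lower member was Ndufs1, the largest iron-sulfur subunit of complex I, at 90.6, 80.2, 79.6 and 88.6 CPM against 69.5, 67.4 and 71.1 CPM (−0.29 ± 0.09, adjusted p = 0.0414). Its call was lost without any one of the 7 livers. Kits that do not mark strand leave reads of overlapping genes joined, and this applies to Ndufs1 with Eef1b2, Ndufb6 with Smim27, Ndufa13 with Tssk6 and Ndufb11 with Rbm10.

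The count of 18 was 9 without AAV9.empty replicate 4 or rAAV9.CB.ST3GAL5.E332K replicate 3, 10 without AAV9.empty replicate 1 or 2, and 9 without AAV9.empty replicate 3, the library that held muscle markers. In the last case the 9 were Cox6b2, Cox7a2l, Ndufa1, Ndufa13, Ndufa6, Ndufa7, Ndufb11, Ndufb6 and Uqcrq. Over all genes, 1170 of 14759 were higher in the main fit. They became 862 of 14558 without AAV9.empty replicate 4, 772 of 14576 without AAV9.empty replicate 3 and 1035 of 15106 without rAAV9.CB.ST3GAL5.E332K replicate 3. Without rAAV9.CB.ST3GAL5.E332K replicate 2, 1 mt- member was higher. Of the markers, 5 of 10 neutrophil genes (summed TPM 5434 to 6735), 1 of 12 erythroid genes and 1 of 7 endothelial genes were higher. Lower were 2 of 7 hepatocyte genes, 3 of 9 Kupffer cell and monocyte genes (summed TPM 587 to 669) and 3 of 6 stellate cell genes (142 to 194, against 197 to 257 in AAV9.empty), and their part was not tested. Erythroid TPM was 149995, 163695 and 74226 in replicates 1 to 3, with nuclear sums of 11616, 10667 and 13194 CPM. In rAAV9.CB.ST3GAL5 the order was the other way, at 142376, 118084 and 127623 TPM with 9756, 8789 and 9694 CPM. The part of erythroid cells was not tested.

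In rAAV9.Syn1.ST3GAL5.miR122BS against AAV9.empty, 25 of 81 nuclear members (30.9%) were higher and 0 lower, beside 2.88% higher and 2.5% lower over all genes. No nuclear member was lower at an unadjusted p under 0.05, in DESeq2 or in limma. The median log2 fold change was 0.27 for the nuclear members and 0.27 for the mt- members, against 0.01 for all genes. The higher members were 14 in complex I, 3 in complex III, 6 in complex IV, 2 in complex V and 0 in complex II.

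Cox6b2, the leading gene again, was at 24.2, 20.5, 19.8 and 21.2 CPM, every liver above the highest control of 10.9 CPM. Its level was 2.23-fold that of AAV9.empty (log2 fold change 1.16 ± 0.11, adjusted p = 9.9e-05), and it was the only called member past 2-fold in the 6 comparisons. The AAV9.empty livers were low for this gene beside PBS, where it stood at 15.0, 15.5, 12.1 and 11 CPM (AAV9.empty against PBS −0.48 ± 0.13, adjusted p = 0.142). In rAAV9.CB.EGFP it was at 16.2, 14.1, 12.2 and 13.9 CPM (0.56 ± 0.12, adjusted p = 0.0652).

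Ndufa1 was at 60.7, 57.3, 50.6 and 49.7 CPM (0.65 ± 0.08, adjusted p = 0.00123), and Ndufb6 was at 56.1, 70.9, 57.2 and 61.5 CPM (0.54 ± 0.09, adjusted p = 0.00673). Both stood above all AAV9.empty livers. Uqcr11, the smallest subunit of complex III, was at 95.8, 87.9, 95.7 and 91.2 CPM in AAV9.empty against 155, 157, 128 and 133 CPM (0.63 ± 0.09, adjusted p = 0.00209). Ndufa2 was at 93.8, 83.7, 97.6 and 100.4 CPM against 139.5, 145, 117 and 128 CPM (0.50 ± 0.09, adjusted p = 0.0103). Cox7a2, the liver form of its subunit, was at 109, 92.4, 96.5 and 93.3 CPM against 132, 148, 119 and 137 CPM (0.46 ± 0.09, adjusted p = 0.0134). No treated liver overlapped the controls in these genes. Of these 6 genes only Cox7a2 lost its call without a single library (adjusted p = 0.0539 without AAV9.empty replicate 2).

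**Figure D3:**
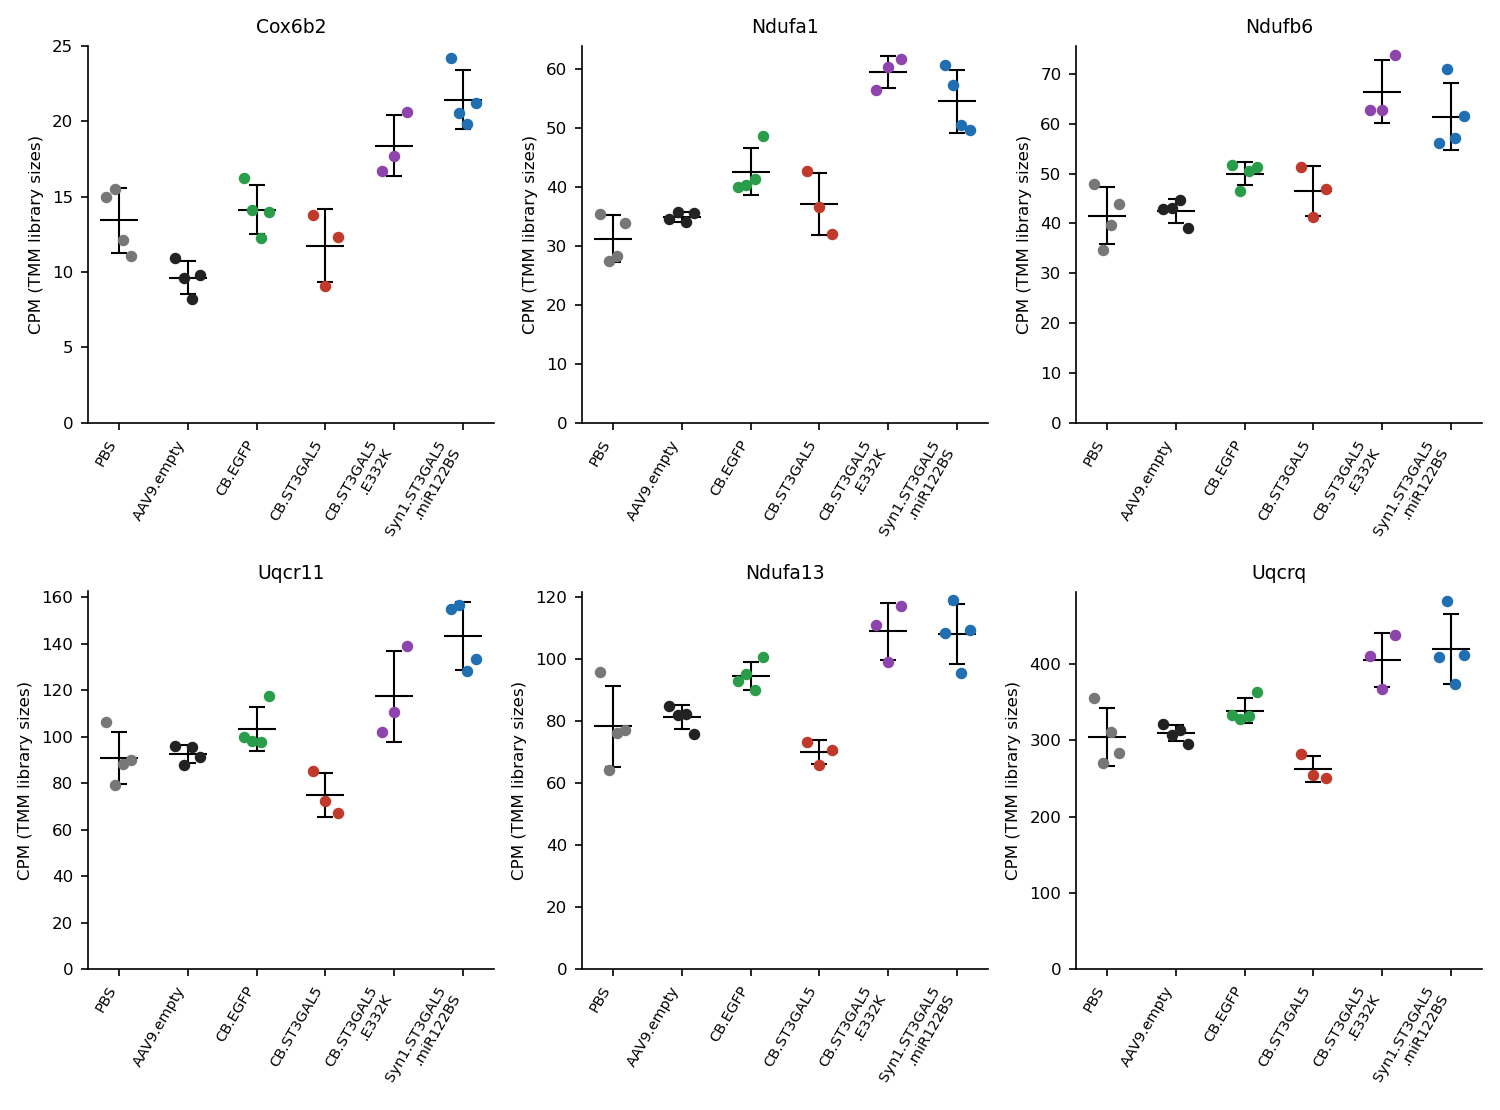
CPM of 6 small accessory subunits in each liver, with group mean and SD bars and axes starting at 0. The rAAV9.CB.ST3GAL5.E332K and rAAV9.Syn1.ST3GAL5.miR122BS livers lie above the AAV9.empty livers in every panel, and the rAAV9.CB.ST3GAL5 livers lie below them in Uqcr11, Ndufa13 and Uqcrq.

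The count of 25 was 6 without AAV9.empty replicate 2, 14, 12 and 13 without AAV9.empty replicate 1, 3 and 4, and 15 without rAAV9.Syn1.ST3GAL5.miR122BS replicate 1. Without both libraries that held muscle markers it was 9, namely Atp5e, Cox6b2, Cox7a2, Ndufa1, Ndufa13, Ndufa2, Ndufb6, Uqcr11 and Uqcrq. Over all genes, 419 of 14558 were higher in the main fit. They became 127 of 14814 without AAV9.empty replicate 2 and 133 of 14586 without both libraries that held muscle markers. Of the cell type markers, 4 of 9 Kupffer cell and monocyte genes were lower (summed TPM 531 to 655 against 747 to 945) and 1 of 12 erythroid genes was higher. No hepatocyte or neutrophil gene passed. Erythroid TPM was 102332, 71649, 152231 and 143417 in replicates 1 to 4, with nuclear sums of 12773, 14052, 11367 and 11650 CPM. The part of these cells in the result was not tested.

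With this vector 4 of the 13 mt- members (30.8%) were higher. Fitted values were above 0 for 12 of the 13, and mt-Atp8 was at −0.51. At an unadjusted p under 0.05, 9 were higher and 1, mt-Atp8, was lower. mt-Nd4 was at 3372, 3231, 3259 and 3061 CPM in AAV9.empty and at 4228, 4996, 3769 and 4015 CPM in rAAV9.Syn1.ST3GAL5.miR122BS (0.40 ± 0.09, adjusted p = 0.0307). mt-Atp6 was at 1942, 1658, 2204 and 1955 CPM against 2674, 2623, 2351 and 2679 CPM (0.42 ± 0.10, adjusted p = 0.0272). Both groups of livers were separate. mt-Co3 was at 2694, 3153, 2284 and 2645 CPM (0.38 ± 0.10, adjusted p = 0.0439), and mt-Cytb was at 4273, 4866, 3988 and 4099 CPM (0.32 ± 0.08, adjusted p = 0.0458). With the copies on chromosome 1 added, mt-Nd4 alone passed (0.39, adjusted p = 0.0335). The count was 0 without AAV9.empty replicate 1, 2 or 4 or rAAV9.Syn1.ST3GAL5.miR122BS replicate 1 or 4, 1 without AAV9.empty replicate 3, and 2 without both libraries with muscle markers, so the mt- calls of this comparison rested on single livers more than those of Cox6b2, Ndufa1, Ndufb6, Uqcr11 and Ndufa2 did.

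Transcript length and ribosomal protein genes were set beside these results. A gene's length was taken as the middle one of its annotated transcripts. The median over the higher nuclear members was 558.5 bases in rAAV9.CB.ST3GAL5.E332K against 646.5 for those that did not pass, and 572 against 705.5 bases in rAAV9.Syn1.ST3GAL5.miR122BS, with wide overlap (419 to 1251 against 369 to 4660, and 419 to 4435 against 369 to 4660). By the longest transcript of each gene the medians were 884.5 against 1231.5 bases and 908 against 1180 bases. Over all genes under 1000 bases by the middle transcript the median log2 fold change was 0.04 in both comparisons, and over those of 4000 bases or more it was −0.11 and −0.08. Of 80 ribosomal protein genes, 37.5% were higher in rAAV9.CB.ST3GAL5.E332K with a median of 0.26, and 42.5% were higher in rAAV9.Syn1.ST3GAL5.miR122BS with a median of 0.30. In rAAV9.CB.ST3GAL5 the ribosomal protein median was 0.05, and the lower members had a median of 815 bases against 599 for those that did not pass (1697 against 927 by the longest transcript). The part of transcript length in these results was not tested.

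Set directly against rAAV9.CB.ST3GAL5.E332K, rAAV9.CB.ST3GAL5 had 19 of 81 nuclear members (23.5%) lower and 0 higher, beside 10% lower and 9.55% higher over all genes. No member was higher at an unadjusted p under 0.05 or in DESeq2 or limma. Fitted values were below 0 for 78 of 81 nuclear members, with a median of −0.34 against 0.01 for all genes. The lower members were 14 in complex I, 2 in complex III, 2 in complex IV, 1 in complex V and 0 in complex II. The mt- members had a median of −0.16 and 0 of 13 passed, with 1 lower at an unadjusted p under 0.05, 1 in DESeq2 and 0 in limma.

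Ndufb11 was at 82.2, 74.8 and 71.0 CPM in rAAV9.CB.ST3GAL5 and at 123, 118 and 158 CPM in rAAV9.CB.ST3GAL5.E332K (log2 fold change −0.79 ± 0.15, adjusted p = 0.0104). Ndufv3 was at 46.5, 42.5 and 51.1 CPM against 76.9, 71.0 and 90.5 CPM (−0.75 ± 0.13, adjusted p = 0.0093). Both genes were also lower in rAAV9.CB.ST3GAL5 and higher in rAAV9.CB.ST3GAL5.E332K than in AAV9.empty. Ndufa8, which has cysteine pairs of the intermembrane space, was at 85.9, 73.0 and 86.5 CPM against 137, 111 and 144 CPM (−0.66 ± 0.14, adjusted p = 0.0163), and it too passed in both comparisons with AAV9.empty. Ndufa1 was at 42.7, 36.6 and 32.1 CPM against 56.5, 60.3 and 61.8 CPM (−0.66 ± 0.13, adjusted p = 0.0122), with rAAV9.CB.ST3GAL5 near the AAV9.empty level (0.09, adjusted p = 0.535). Cox6b2 was at 13.8, 9.07 and 12.3 CPM against 16.7, 17.7 and 20.6 CPM (−0.63 ± 0.18, adjusted p = 0.0395), and 2 of those 3 rAAV9.CB.ST3GAL5 livers lay above every AAV9.empty liver (0.29 ± 0.16 against AAV9.empty, adjusted p = 0.221). Uqcr11 was at 85.3, 72.3 and 67.2 CPM against 102, 111 and 139 CPM (−0.63 ± 0.16, adjusted p = 0.0268). In all 6 genes the groups were separate.

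The 19 became 8, 10 and 11 without rAAV9.CB.ST3GAL5 replicate 1, 2 and 3, and 6 and 5 without rAAV9.CB.ST3GAL5.E332K replicate 1 and 3. Over all genes, 1479 of 14742 were lower in the main fit. They became 715 of 15124 and 476 of 15155 without rAAV9.CB.ST3GAL5.E332K replicate 1 and 3. Without rAAV9.CB.ST3GAL5 replicate 2 or rAAV9.CB.ST3GAL5.E332K replicate 2, 1 mt- member was lower. Leaving out single livers raised the adjusted p of Cox6b2 to between 0.0545 and 0.129, that of Ndufa8 to as much as 0.0611 (without rAAV9.CB.ST3GAL5.E332K replicate 1) and that of Uqcr11 to as much as 0.0781 (without rAAV9.CB.ST3GAL5.E332K replicate 3). The call of Ndufa1 remained in every alternative. Of the markers, 3 of 7 hepatocyte genes were lower and 1 higher, and 3 of 10 neutrophil and 3 of 6 stellate cell genes were higher, and their part was not tested. The Y-linked gene without counts in all 3 rAAV9.CB.ST3GAL5 livers and in none of the rAAV9.CB.ST3GAL5.E332K livers separates these groups completely, so that difference and the vector cannot be told apart here.

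**Figure D4:**
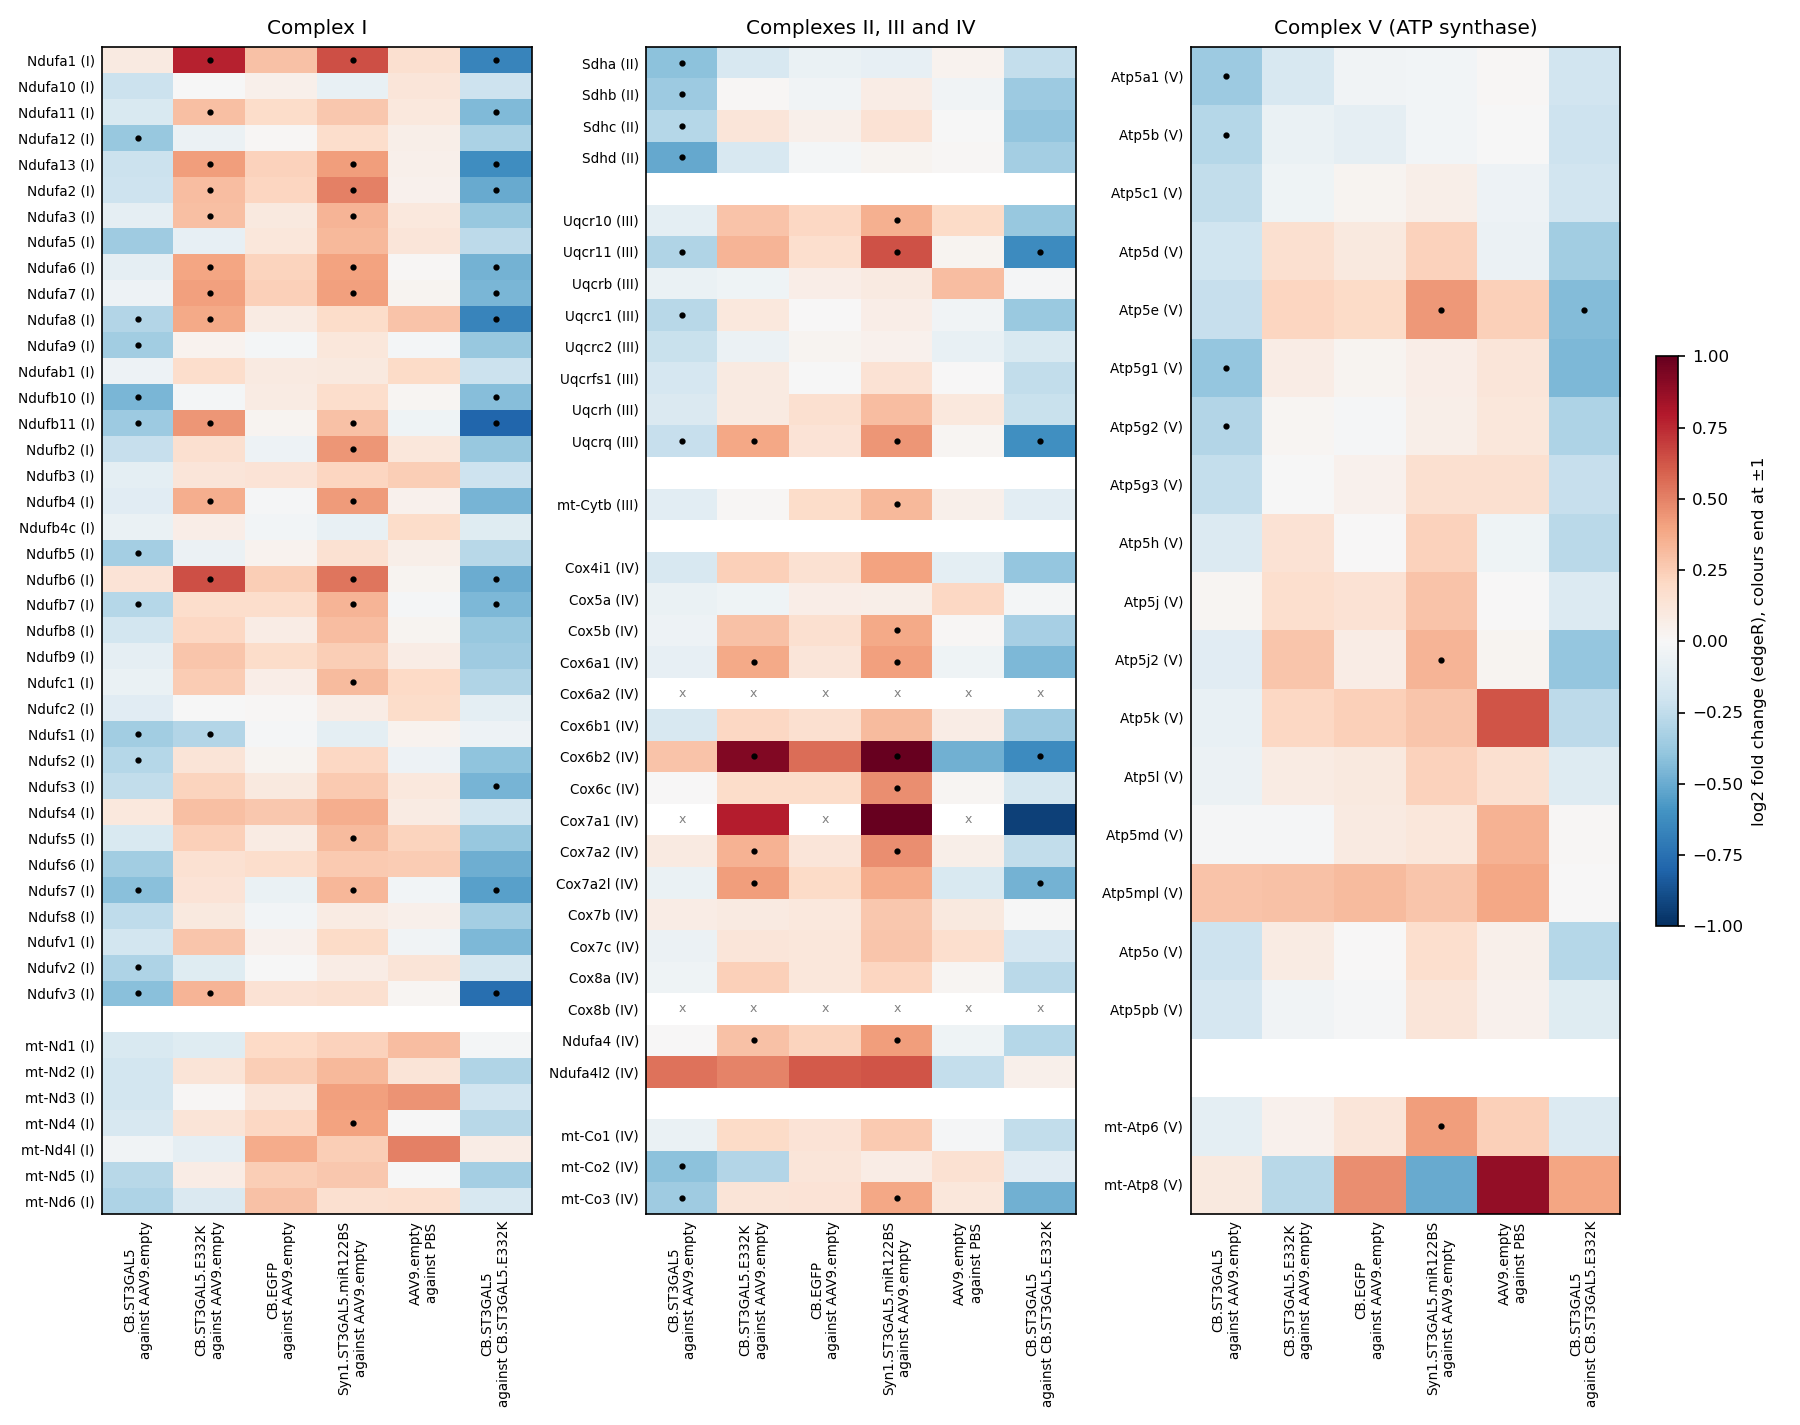
Log2 fold change of each member (rows, by complex, the mt- genes below the nuclear ones) in the 6 comparisons (columns, the prefix rAAV9. left off), with colours ending at ±1, dots where the adjusted p was at most 0.05 and crosses where a gene was too low to test. Dots sit on blue cells in rAAV9.CB.ST3GAL5 against AAV9.empty and on red cells in rAAV9.Syn1.ST3GAL5.miR122BS, and the complex II rows are dotted only in the first.

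No member passed the same test in the comparisons of the EGFP vector or of the empty capsid. In rAAV9.CB.EGFP against AAV9.empty, 0 of 80 nuclear and 0 of 13 mt- members passed, beside 0.387% higher and 0.0553% lower over all genes. At an unadjusted p under 0.05, 26 nuclear and 6 mt- members were higher and 0 lower, beside 1806 of 14473 genes in either direction. DESeq2 called 4 nuclear and 5 mt- members higher, beside 157 of 14358 genes, where limma called 0, beside 28 of 12941 genes. All 13 mt- members had fitted values above 0, from 0.12 to 0.47, with a median of 0.20, and the nuclear median was 0.09. In AAV9.empty against PBS, 0 of 80 and 0 of 13 passed, beside 0.104% higher and 0.207% lower. At an unadjusted p under 0.05, 12 nuclear members were higher and 1 lower, and 5 mt- members were higher, beside 1845 of 14476 genes in either direction. DESeq2 called 3 nuclear and 2 mt- members higher, beside 142 of 11741 genes, and limma 0, beside 3 of 12879 genes. Without PBS replicate 1, 4 nuclear and 2 mt- members were higher, beside 109 of 14775 genes. The largest fitted value was that of mt-Atp8, at 12.2, 15.0, 25.0 and 25.1 CPM in AAV9.empty and 10.4, 12.9, 5.50 and 13.3 CPM in PBS (0.88 ± 0.26, adjusted p = 0.157). mt-Nd1, a membrane subunit of complex I, was at 3352, 3442, 3215 and 3452 CPM in AAV9.empty and 2778, 2644, 2766 and 2635 CPM in PBS, without overlap (0.31 ± 0.07, adjusted p = 0.064). These differences did not pass the threshold, which does not show that the groups were alike.

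The muscle forms of complex IV subunits followed individual libraries and not the groups. Cox6a2 reached 9.75 CPM in rAAV9.CB.EGFP replicate 3, 7.55 CPM in rAAV9.Syn1.ST3GAL5.miR122BS replicate 3 and 1.74 CPM in AAV9.empty replicate 3, and was at most 0.607 CPM elsewhere. Cox8b reached 6.54, 5.00 and 1.90 CPM in the same 3 libraries, and was at 0 in all 3 rAAV9.CB.ST3GAL5 livers. Cox7a1 reached 4.62, 3.09 and 1.14 CPM there, and also 2.07 CPM in rAAV9.Syn1.ST3GAL5.miR122BS replicate 2 and 1.52 CPM in rAAV9.CB.ST3GAL5.E332K replicate 3, which held few muscle markers. Those 3 libraries are among the 4 with the highest sums of the 9 muscle and brown fat markers, a list that does not include these genes. Ucp1 was at 0 throughout PBS and rAAV9.CB.EGFP, and Myh4, Mb and Ucp1 were at 0 throughout rAAV9.CB.ST3GAL5 and rAAV9.CB.ST3GAL5.E332K. Cox6a2 and Cox8b were too low to be tested in any comparison. Cox7a1 was tested in 3 and did not pass (1.65 with an adjusted p of 0.185 in rAAV9.Syn1.ST3GAL5.miR122BS against AAV9.empty). Ndufa4l2, the other low paralog, overlaps the more abundant Shmt2 on the opposite strand, so its counts of 40.9 on average may include reads of that gene, and it passed in no comparison.

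**Figure D5:**
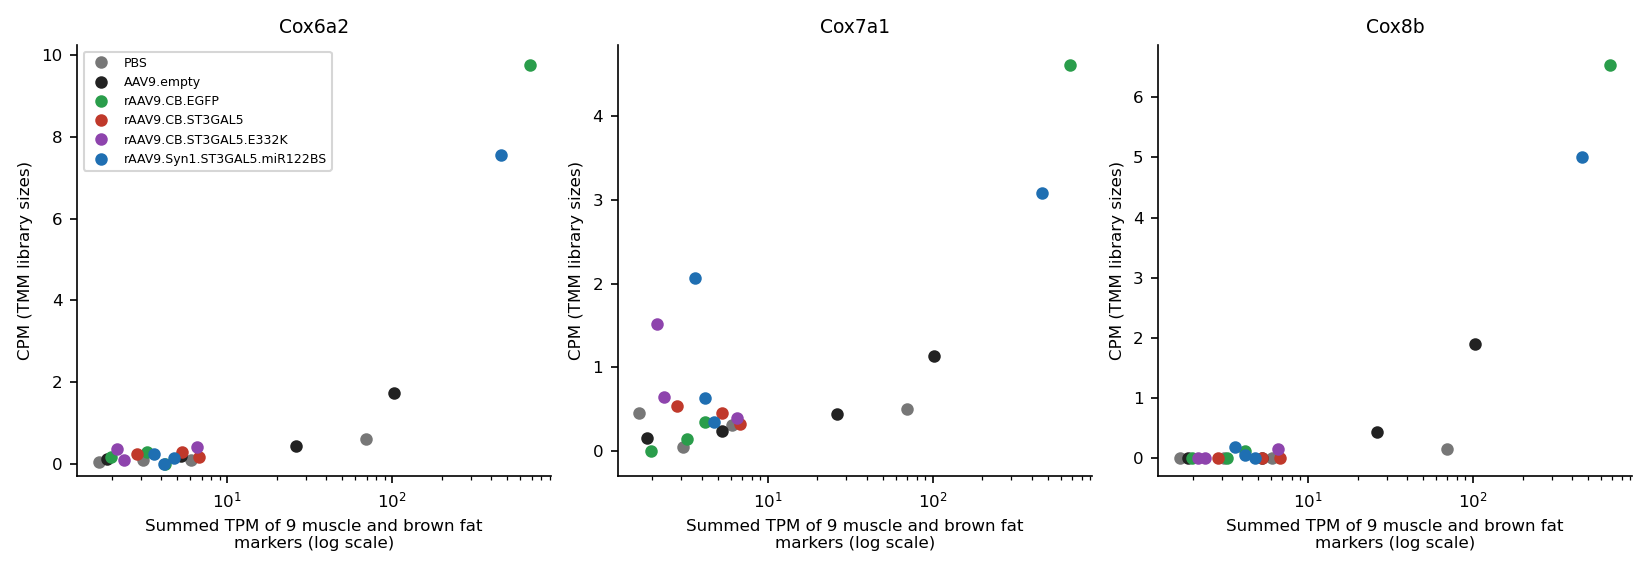
CPM of the muscle forms Cox6a2, Cox7a1 and Cox8b (linear axes) against the summed TPM of 9 striated muscle and brown fat markers (log axis), one point per liver and coloured by group. The rAAV9.CB.EGFP and rAAV9.Syn1.ST3GAL5.miR122BS livers at 681 and 459 TPM hold the highest values of all 3 genes.

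Promoters of nuclear respiratory chain genes are known for sites of NRF1 and of the ETS factor GABP (NRF2), and the letters of these sites were searched in RefSeq promoter windows (GRCm38.p6) that run from 250 bases before to 50 bases after the start. Of 83 nuclear members 68 matched a window. The letters GCGCA, any base and GCGC in a row (NRF1), on either strand, occurred in 17 of 68 (25.0%) against 5.19% of 27025 genes. The letters CCGGAAG (ETS) occurred in 17 of 68 against 9.93%, and AAGATGGCG (YY1, another factor of these promoters) in 7 of 68 (10.3%) against 1.64%. These are short stretches from genes on which the results turn, with the match, or its reverse complement, in capitals and each written along the strand of its gene.
Sdha, NRF1, chr13:74350320-74350347 (minus strand): gtttacaggGCGCAGGCGCaccaccact
Sdhd, NRF1, chr9:50603910-50603937 (minus strand): cgctggggtGCGCACGCGCggtggcagc
Sdhd, ETS, reverse complement, chr9:50603878-50603905 (minus strand): cgtctcctgcCTTCCGGttcacgcttca
Sdhb, ETS, chr4:140961267-140961294 (plus strand): ctcggagaaaCCGGAAGcggccttccac
Uqcr11, ETS, chr10:80406870-80406897 (minus strand): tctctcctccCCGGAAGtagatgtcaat
Ndufb6, ETS, reverse complement, chr4:40279636-40279663 (minus strand): cgtccttgttCTTCCGGtcccctcccct
The matches began 98 bases before the start in Sdha, 79 and 46 bases before it in Sdhd, 66 in Uqcr11 and 232 in Ndufb6, and lay just after it in Sdhb. The NRF1 letters were in 5 of the 18 matched genes lower in rAAV9.CB.ST3GAL5, 5 of the 16 higher in rAAV9.CB.ST3GAL5.E332K and 4 of the 22 higher in rAAV9.Syn1.ST3GAL5.miR122BS. The ETS letters were in 4, 2 and 5 of them. Members that fell and members that rose both held these letters, and a match is not evidence of binding.

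Other mitochondrial genes were counted by list in the same fits. In rAAV9.CB.ST3GAL5 against AAV9.empty, 20 of 53 assembly factors were lower and 0 higher, with a median of −0.26. Examples were Coa6, a complex IV copper factor, at −0.62 (adjusted p = 0.00681), Bcs1l, which inserts the Rieske protein into complex III, at −0.61 (adjusted p = 0.00735), and Taco1, the translational activator of mt-Co1, at −0.61 (adjusted p = 0.00677). Of 23 TCA cycle genes 11 were lower and 0 higher, led by the kinase Pdk2 at −1.30 (adjusted p = 0.00171) and the dehydrogenase Idh2 at −0.89 (adjusted p = 0.000169). Of 27 electron carrier and exchanger genes 8 were lower and 1 higher. Coq8a, needed to make coenzyme Q, was at −2.83 (adjusted p = 0.000784), a larger fall than in any subunit, and Coq10b was the higher one at 0.80 (adjusted p = 0.0011).

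Of 78 mitochondrial ribosome genes 18 were lower and 1 higher in that comparison, with Mrpl12 at −0.68 (adjusted p = 0.00124). Of 38 genes of mitochondrial DNA maintenance and transcription 10 were lower and 0 higher, among them the nuclease Mgme1 at −0.99 (adjusted p = 0.008) and the helicase Twnk at −0.54 (adjusted p = 0.0128). Of 26 chaperones and proteases 10 were lower and 1 higher, with Hspd1, the matrix chaperonin, at −0.50 (adjusted p = 0.00209). Of 24 nuclear regulators 6 were lower and 6 higher, and the falls included the nuclear receptors Esrrg at −2.43 (adjusted p = 0.00228), Esrrb at −1.68 (adjusted p = 0.0251) and Ppara at −1.66 (adjusted p = 0.00184). Beside the background of 14.3% lower, the mitochondrial lists other than the regulators held from 18 of 78 to 11 of 23 lower genes.

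In the other comparisons with AAV9.empty these lists held fewer calls, as did all genes. In rAAV9.CB.ST3GAL5.E332K, where the background was 7.93% higher and 7.09% lower, 3 of 53 assembly factors were higher and 0 lower, led by the complex II factor Sdhaf1 at 0.65 (adjusted p = 0.0169). Of 78 mitochondrial ribosome genes 8 were higher, a share near the background, and 1 lower, a share below it. Of the 38 mitochondrial DNA genes 2 were higher and 6 lower, with the thymidine kinase Tk2 at 0.61 (adjusted p = 0.003) and Lrpprc, which stabilises mt- transcripts, at −0.47 (adjusted p = 0.00878). Of the 24 regulators 3 were higher and 5 lower, with Esrrg at −1.60 (adjusted p = 0.0221) and the coactivator Ppargc1a at −1.32 (adjusted p = 0.000771). Of the 27 carriers 1 was higher and 3 lower, of the 26 chaperones 1 and 4, with the kinase Pink1 at 0.80 (adjusted p = 0.00154) and Hspd1 at −0.79 (adjusted p = 0.000194), and of the 23 TCA cycle genes 0 and 1, Idh3a at −0.31 (adjusted p = 0.0424).

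In rAAV9.Syn1.ST3GAL5.miR122BS, beside 2.88% higher and 2.5% lower over all genes, 3 of 53 assembly factors were higher and 0 lower, among them Sdhaf1 at 0.49 (adjusted p = 0.0271) and Cox17, a copper chaperone, at 0.31 (adjusted p = 0.0256). Of the 78 mitochondrial ribosome genes 3 were higher, a share again near the background, and 0 lower. Of the 38 mitochondrial DNA genes 1 was higher and 1 lower: Tk2 was at 0.46 (adjusted p = 0.0168) and Lrpprc at −0.28 (adjusted p = 0.0446). Of the 24 regulators, the receptor Esrra was higher at 0.42 (adjusted p = 0.0269), and Ppara and Hif1a were lower at −0.45 each (adjusted p = 0.0303 and 0.0167). Of the 27 carriers 1, Etfdh, was lower at −0.36 (adjusted p = 0.0196), and no chaperone or TCA cycle gene passed. In rAAV9.CB.EGFP no gene of these lists passed, and in AAV9.empty against PBS 1 did, Higd1a, an assembly factor, at 0.45 (adjusted p = 0.0281).

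Between rAAV9.CB.ST3GAL5 and rAAV9.CB.ST3GAL5.E332K, beside 10% lower and 9.55% higher over all genes, 12 of 53 assembly factors were lower in the former and 0 higher, led by Coa4 at −0.92 (adjusted p = 0.0171) and Bcs1l at −0.89 (adjusted p = 0.0107). Of the mitochondrial ribosome genes 14 of 78 were lower and 0 higher, with Mrpl14 at −0.65 (adjusted p = 0.0118). Coq8a differed by −2.07 (adjusted p = 0.0105) and Coq9 by −0.93 (adjusted p = 0.00898) among 3 lower and 1 higher of 27 carriers. Hif1a was higher by 1.12 (adjusted p = 0.0108), and Ppara and Sirt3 were lower by −1.10 (adjusted p = 0.0301) and −0.99 (adjusted p = 0.0176), of 4 higher and 3 lower among 23 regulators. Of the 38 mitochondrial DNA genes 4 were lower and 0 higher, as were 4 and 0 of the 26 chaperones, and of the 23 TCA cycle genes 3 were lower and 1, the kinase Pdk4 at 1.09 (adjusted p = 0.00806), higher.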

How the data were processed

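Polyadenylated RNA of 22 livers, freed of ribosomal RNA, was sequenced with a kit that does not mark strand. The authors trimmed reads with Trimmomatic, aligned them with STAR to mm10 and deposited RSEM expected counts and TPM for 55291 genes. The GENCODE release is not given in the sources used here. Expected counts were rounded and tested pairwise with edgeR 4.0.16 (R 4.3.3; TMM, filterByExpr, quasi-likelihood F-test, Benjamini-Hochberg over all genes, adjusted p of at most 0.05). CPM use TMM library sizes. The deposited TPM served for levels and, as log2(TPM + 1), for limma 3.58.1; DESeq2 1.42.0, RLE factors, other filters, a fit of all 6 groups, the replicate block and leaving out each liver were further alternatives. Depth was 17164502 to 24305788 counts. Simulated 2-fold changes were called in 77% of cases in rAAV9.CB.ST3GAL5 against AAV9.empty and 79% in rAAV9.Syn1.ST3GAL5.miR122BS. Smaller changes, such as those of all called members but Cox6b2, were not simulated, so these rates do not cover them. Positions and shared stretches came from GENCODE vM21. The members, gene lists and tests were chosen with earlier results of these data known. Named members are all mt- and Sdh genes, subunit paralogs, the highest member by TPM in each complex and those beside the count minimum. The 6 largest called changes per direction and comparison were also named. Of the mt- genes, mt-Nd2 and mt-Nd6 passed in no comparison and are named only here. List genes are up to 3 per list. Others (such as Uqcrq, Ndufa6, mt- copies, Gm47283) were named after their values were seen.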

Additional observations from a re-analysis of the deposited data

Results flagged for a closer look

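Values were flagged by a cut-off that about 1 in 20 independent sets pass by chance. The sets here are genes read in the same livers, so that rate does not apply to their number. In groups of 4 livers, 22 of 200 sets of values had a liver standing far from the other 3. Among mt- members these were mt-Nd3 at 487 CPM in rAAV9.CB.EGFP replicate 2 (others 700 to 737), mt-Co3 at 2078 CPM in the same liver (2321 to 2346), mt-Co2 at 1040 CPM in rAAV9.CB.EGFP replicate 1 (703 to 760), and mt-Nd5 at 2340 CPM in AAV9.empty replicate 3 (2054 to 2097). In rAAV9.Syn1.ST3GAL5.miR122BS, mt-Co1 was at 15796 CPM in replicate 2 (10948 to 11700) and mt-Atp6 at 2351 CPM in replicate 3 (2623 to 2679). In PBS replicate 1, Sdhc was at 142 CPM (106 to 112) and Cox4i1 at 506 CPM (409 to 417). Sdhd was at 173 CPM in AAV9.empty replicate 1, where the others were all at 162.

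In rAAV9.CB.EGFP replicate 4, Ndufa1 was at 48.6 CPM (40.1 to 41.4), Uqcr11 at 118 CPM (97.8 to 99.8) and Uqcrq at 363 CPM (328 to 333). Atp5b was at 1179 CPM in rAAV9.CB.EGFP replicate 1 (1041 to 1062), and Ndufa4 at 191 CPM in rAAV9.Syn1.ST3GAL5.miR122BS replicate 2 (139 to 148). In rAAV9.CB.EGFP replicate 3, which held 681 TPM of muscle markers, Cox6a2 was at 9.75, Cox7a1 at 4.62 and Cox8b at 6.54 CPM, while Cox8a was at 199 CPM, below the other 3 at 217 to 221. Cox6a2 and Cox8b were at 7.55 and 5.00 CPM in rAAV9.Syn1.ST3GAL5.miR122BS replicate 3, and at 0.607 and 0.152 CPM in PBS replicate 2.

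The livers of the 2 CB vectors that carry ST3GAL5 differed when set directly against each other, with 19 of 81 nuclear members lower in rAAV9.CB.ST3GAL5 than in rAAV9.CB.ST3GAL5.E332K beside 10% lower over all genes. The 19 were 5 to 18 with single livers left out and 7, 7 and 1 with limma. Genes lower over the whole table were 521 of 12963, 522 of 12963 and 203 of 24768 in the limma fits. Since the Y-annotated gene Gm47283 separates these groups completely, the vector and whatever that gene marks cannot be told apart.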

How the results depend on the processing

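Counts of members depended on the processing. Over 47 named calls and 891 alternative values, 655 stayed past the threshold and 236 did not, and none turned its direction. Over all 92 member calls and 1739 alternative values, 3 had the opposite sign and 0 of these passed: Ndufc1, higher in rAAV9.Syn1.ST3GAL5.miR122BS (0.31), was at −0.69 in all 3 limma fits on TPM (adjusted p from 0.0966 to 0.219). Of 539 alternative values for 30 main results, 448 kept within 1.5 times the count or 1 SD of the ratio. Those that moved are given by comparison, and their cause was not tested. In rAAV9.CB.ST3GAL5 against AAV9.empty, the 23 lower nuclear members were 7, 7 and 5 with limma (TPM + 1, TPM + 0.1, no filter). Over all genes, 1138 of 13077, 1150 of 13077 and 855 of 25147 were lower in those fits. The share of nuclear members was near that of all genes in the first 2. The 2 lower mt- members were 0, 1 and 0 with limma, 0 with copies added and 1 without libraries with muscle markers. In rAAV9.CB.ST3GAL5.E332K, the 18 higher were 9, 9 and 5 with limma and 9 without libraries with muscle markers. Over all genes, 407 of 12830, 409 of 12830 and 267 of 24882 were higher with limma. The 1 lower was 0 with no filter or without libraries with muscle markers. It was 2 and 2 with limma, beside 1074 and 1093 of 12830 genes. In rAAV9.CB.EGFP, DESeq2 gave 4 nuclear and 5 mt- members higher, beside 157 of 14358 genes. In rAAV9.Syn1.ST3GAL5.miR122BS, the 25 were 12 with limma and no filter and 9 without libraries with muscle markers, and the 4 mt- members were 7 with DESeq2, 1 with no filter, 1, 1 and 0 with limma, 1 with copies and 2 without libraries with muscle markers; the ratio difference of −0.10 was −0.011 on summed TPM and 0.0205 as a mean of log2(CPM + 1). In AAV9.empty against PBS, DESeq2 gave 3 nuclear and 2 mt- members higher, as did no filter. Over all genes, 142 of 11741 and 177 of 24667 were higher in these 2 fits. The ratio difference of −0.04 was −0.22 on TPM and −0.15 as a mean. Without mt-Atp8, which the table lists at 0 TPM in 6 libraries that hold counts of it, the TPM values were −0.05 for rAAV9.Syn1.ST3GAL5.miR122BS and −0.07 for AAV9.empty against PBS, a choice made after seeing the data. Between the 2 CB vectors, the 19 were 31 with DESeq2, 49 with all 6 groups in one fit and 7, 7 and 1 with limma. Genes lower over the whole table were 1754 of 14629 with DESeq2 and 2693 of 15873 with all 6 groups. With limma they were 521 of 12963, 522 of 12963 and 203 of 24768. The 0 mt- members were 1 with DESeq2 and 4 in the fit of all groups. On log2(TPM + 1), the median of all genes moved to 0.10, −0.10, −0.10 and 0.18 in the rAAV9.CB.ST3GAL5, rAAV9.CB.ST3GAL5.E332K, Syn1 and CB vector comparisons.

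With single livers left out, nuclear members ranged from 13 to 22 lower and 0 to 1 higher, and mt- members from 0 to 6 lower, in rAAV9.CB.ST3GAL5 (ratio −0.13 to 0.06). They ranged from 9 to 21 higher and 0 to 0 lower, with 0 to 1 mt- higher, in rAAV9.CB.ST3GAL5.E332K (ratio −0.05 to 0.12), and from 6 to 21 higher, with 0 to 4 mt- higher, in rAAV9.Syn1.ST3GAL5.miR122BS (ratio −0.12 to −0.07). They ranged from 0 to 4 nuclear and 0 to 2 mt- higher in AAV9.empty against PBS (ratio −0.07 to 0.01) and from 5 to 18 nuclear and 0 to 1 mt- lower between the CB vectors (ratio −0.18 to 0.03). In rAAV9.CB.EGFP all counts stayed at 0 (ratio −0.14 to −0.08). Calls over all genes changed in these fits too.

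Replicate numbers of the labels did not pair the livers, since correlations of same-numbered livers ran from −0.23 to 0.29. With the replicate block, nuclear members lower in rAAV9.CB.ST3GAL5 were 12 and mt- members 1, beside 1663 of 14876 genes. The nuclear share was then nearer to that of all genes than in the main fit. Nuclear members higher in rAAV9.CB.ST3GAL5.E332K were 4 with 0 lower, beside 574 of 14759 genes higher, shares near each other. In rAAV9.CB.EGFP 1 was higher, beside 59 of 14473 genes. In rAAV9.Syn1.ST3GAL5.miR122BS 2 mt- members were higher, beside 454 of 14558 genes. Not every liver correlated best with its own number.

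Expected counts split reads between genes that share sequence, and depth limits Cox6a2, Cox7a1, Cox8b and mt-Atp8. Intervals and p-values cover these livers only.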
